A study of Mus musculus with 12 samples.

Results

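The plasmacytoid dendritic cell genes described here are Siglech, Klk1, Cox6a2, Smim5, D13Ertd608e, Spib, Runx2, Pacsin1 and Bst2, 9 of the 17523 genes in the table of normalized counts. They were taken by name. Several of them were chosen by their normalized counts in these same libraries, which were lower in YFP+ than in YFP- effector memory T cells. The difference between those cells, and everything that shares their libraries, is therefore given for these genes as a description without a test, and nothing is supported with it. The comparison of YFP+ with YFP- naive T cells was not used in the choice and was tested.

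RNA was sequenced from CD4+ T cells sorted by FACS from spleens of untreated Gr/fr mice on the C57BL/6 strain. In these mice the Csf2 allele, which encodes GM-CSF, also carries iCre and BFP, and Cre switches on eYFP from Rosa26. YFP is therefore a mark of present or past GM-CSF expression. Naive cells (CD44-) and effector memory cells (TEM, CD44hi) were each sorted by YFP, for a total of 4 groups with 3 libraries in each. All groups came from the same reporter line, and the labels give neither age nor sex; the methods describe CD4+ T cell sorts from mice of 2 to 3 months. The sources do not say whether CD3 or an exclusion of other lineages was part of the gate for RNA sequencing. The methods give n = 3 for the mice and do not say which library came from which animal, so p values here measure the spread between these samples. The libraries held between 40974124 and 57822269 reads on genes.

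Plasmacytoid dendritic cells are rare cells of blood and lymphoid organs that release type I interferon when Toll-like receptors 7 and 9 meet nucleic acids in their endosomes. Their identity depends on the E protein E2-2, encoded by Tcf4, with the ETS factor Spi-B among the other regulators. In the mouse they are recognised by Siglec-H and by Bst2 on the surface, and some carry CD4.

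The sorted cells were checked against the markers of their labels. Csf2 had 139, 55.9 and 152 normalized counts in YFP+ TEM libraries 1, 2 and 3 and at most 3.94 in any library of the other groups. Mean Cd44 was 2831 and 2940 in YFP- and YFP+ naive cells and 22014 and 26861 in YFP- and YFP+ TEM cells. Csf2 and Cd44 thus followed the labels, and mean Cd4 lay between 41908 and 62916 in all 4 groups. One library stood apart from its group: YFP+ naive replicate 2 had the highest summed counts of the 6 naive libraries for conventional dendritic cell, macrophage, B cell, plasma cell, NK cell and erythroid markers. Some of the results that rest on it are also given without it.

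Promoter sequence is shown for Siglech and Klk1, whose counts moved together in the TEM libraries, and for Spib, the ETS factor gene among the members, since E proteins and ETS factors regulate plasmacytoid dendritic cells. RefSeq promoters on GRCm38.p6 were found for 6 of the 9 members and for none of Cox6a2, Smim5 and D13Ertd608e. The stretches below run 5′ to 3′ on the strand of the gene and end where the annotated gene begins. They are chr7:55767934-55768153 on the + strand for Siglech, chr7:44225110-44225359 on the + strand for Klk1 and chr7:44532088-44532321 on the - strand for Spib. Capitals mark a motif match, which is a RUNX match on the reverse strand in Siglech and an E protein match in Klk1.
Siglech: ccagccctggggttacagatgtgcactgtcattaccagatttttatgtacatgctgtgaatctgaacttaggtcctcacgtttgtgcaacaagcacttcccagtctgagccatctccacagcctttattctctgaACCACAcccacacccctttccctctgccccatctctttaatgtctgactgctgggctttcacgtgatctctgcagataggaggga
Klk1: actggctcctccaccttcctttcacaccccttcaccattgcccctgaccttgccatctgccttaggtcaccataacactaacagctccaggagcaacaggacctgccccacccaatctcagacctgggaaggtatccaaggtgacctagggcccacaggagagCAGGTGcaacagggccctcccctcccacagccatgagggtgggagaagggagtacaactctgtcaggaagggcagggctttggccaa
Spib: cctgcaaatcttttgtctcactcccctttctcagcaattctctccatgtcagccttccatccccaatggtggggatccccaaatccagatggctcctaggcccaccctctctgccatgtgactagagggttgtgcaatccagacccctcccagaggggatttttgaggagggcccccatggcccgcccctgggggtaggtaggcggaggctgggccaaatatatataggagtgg
Windows of 300 bases, from 250 before to 50 after the RefSeq promoter start, were searched on both strands for CAGGTG (E protein), GAGGAA (ETS) and TGTGGT (RUNX). Of the 6 members with a window, 3 held the E protein motif (Siglech, Klk1 and Bst2), 1 the ETS motif (Siglech) and 3 the RUNX motif (Siglech, Runx2 and Pacsin1). Of all 32851 such windows, 20.2% held the E protein motif, 28.3% the ETS motif and 16.8% the RUNX motif. Spib held none of the 3 motifs. For Siglech and Spib the promoter start lies inside the annotated gene, so the window runs beyond the stretch shown. The E protein and ETS matches of Siglech, 20 and 4 bases before that start, are in the part not shown. A match describes the letters of the window and not a bound site.

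Siglech encodes a sialic acid binding receptor that signals through the adaptor DAP12 (Entrez 233274, chromosome 7, 55768154 to 55779448). It had 3367, 1412 and 3263 normalized counts in YFP- TEM libraries 1, 2 and 3, and 118, 26.9 and 55.1 in the YFP+ TEM libraries. The YFP- naive libraries had 0, 0 and 1.15, and the YFP+ naive libraries 0, 16.7 and 0. The gene was thus high in every YFP- TEM library, low in every YFP+ TEM library without overlap, and at or near 0 in naive cells, except for the library that stands apart. The means were 2681 ± 1100 in YFP- TEM and 66.8 ± 46.8 in YFP+ TEM cells (SD, n = 3), which leaves 2.49% of the YFP- level. The log2 fold change was -5.45 ± 0.96 (SE of the limma fit). It was -5.98 without YFP+ TEM replicate 1 and -4.93 without YFP+ TEM replicate 2. These are bulk libraries, in which fewer cells of a type and less RNA per cell cannot be told apart.

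Bst2, the other surface protein, is a membrane tether that holds budding viruses and is induced by interferon in many cell types (Entrez 69550, chromosome 8, 71534255 to 71537472). Its normalized counts were 2963, 2565 and 3452 in YFP- TEM and 1846, 1624 and 1844 in YFP+ TEM cells. They were 2147, 2084 and 2243 in YFP- naive and 2003, 2183 and 1968 in YFP+ naive cells. Every library thus carried Bst2, the YFP- TEM libraries lay above the other 9, and the TEM groups did not overlap. The TEM log2 fold change was -0.75 ± 0.10, and YFP+ TEM cells kept 59.2% of the YFP- level. The order of the means was YFP- TEM (2993 ± 445), YFP- naive (2158 ± 80.2), YFP+ naive (2052 ± 115) and YFP+ TEM (1771 ± 128), and the naive groups did not differ beyond their spread.

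Spib encodes the ETS factor Spi-B, which B cells also express (Entrez 272382, chromosome 7, 44525995 to 44532087). It had 1069, 565 and 1146 normalized counts in YFP- TEM and 107, 68.3 and 114 in YFP+ TEM cells. The naive libraries had 77.2, 127 and 70.3 without YFP and 65.5, 249.9 and 88.4 with YFP. Spib was thus raised in YFP- TEM libraries, while YFP+ TEM cells (96.5 ± 24.6) lay within the spread of both naive groups (91.6 ± 31.1 and 135 ± 100). The TEM log2 fold change was -3.22 ± 0.46, and 10.4% of the YFP- level was left. The summed counts of 10 B cell markers were 685, 1786 and 1204 in YFP- naive and 929, 2648 and 1106 in YFP+ naive cells, and both Spib and this sum were highest in replicate 2 of each naive group. The part of B cells in the naive Spib counts was not tested.

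Runx2 encodes a Runt domain factor best known for bone formation, which also acts in the exit of plasmacytoid dendritic cells from bone marrow (Entrez 12393, chromosome 17, 44495987 to 44814797). It had 4331, 3115 and 3514 normalized counts in YFP- TEM and 2477, 2576 and 2296 in YFP+ TEM cells. In naive cells it had 109, 93.4 and 66.8 without YFP and 29.7, 56.1 and 35.3 with YFP. Runx2 was therefore high in both TEM groups, which did not overlap, and low in both naive groups. Its mean in YFP- TEM cells was 40.7 times that in YFP- naive cells, and its mean in YFP+ TEM cells was 60.7 times that in YFP+ naive cells. The TEM log2 fold change was -0.56 ± 0.23, with 67.1% of the YFP- level left.

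Klk1 encodes tissue kallikrein, a secreted serine protease (Entrez 16612, chromosome 7, 44225360 to 44229622). It had 1150, 528 and 1052 normalized counts in YFP- TEM cells and 46.5, 7.25 and 14.3 in YFP+ TEM cells. It was at 0 in all 3 YFP- naive libraries and at 1.24, 3.94 and 0 in the YFP+ naive libraries. The YFP- TEM libraries were thus far above all 9 others, and the mean of 910 ± 335 (SD, n = 3) was at least 270-fold higher than in YFP- naive cells, taken at the floor of 3 reads per library. Such floors cover counting error only. YFP+ TEM cells, at 22.7 ± 20.9, kept 2.49% of the YFP- level, and the log2 fold change was -5.57 ± 0.69. Replicate 1 carried much of the YFP+ TEM level, and without it the log2 fold change was -6.26. Without YFP+ TEM replicate 2 it was -5.00.

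Cox6a2 encodes the muscle form of a subunit of cytochrome c oxidase, the last complex of the respiratory chain (Entrez 12862, chromosome 7, 128205435 to 128206366). It had 267, 107 and 220.03 normalized counts in YFP- TEM cells and 10.1, 2.07 and 0 in YFP+ TEM cells. No naive library had more than 2.47. Cox6a2 was therefore well above the floor in 3 of 12 libraries, and in YFP+ TEM cells its level (4.06 ± 5.34) rested on replicate 1. The log2 fold change of -5.84 ± 0.82 depended on the constant added before the logarithm, with -7.15 for a constant of 0.1 and -4.55 for 5. It was -6.73 without YFP+ TEM replicate 1 and -4.99 without YFP+ TEM replicate 3. Cox6a2 shares bases with Itgad, whose means of 32.5, 226, 108 and 324 in YFP- naive, YFP+ naive, YFP- TEM and YFP+ TEM cells did not follow those of Cox6a2. The YFP+ naive mean of Itgad was 33.9 without replicate 2.

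Smim5 encodes a small membrane protein (Entrez 66528, chromosome 11, 115897806 to 115906269). It had 331, 168 and 419.7 normalized counts in YFP- TEM cells, 8.09, 3.11 and 2.85 in YFP+ TEM cells and at most 1.24 in any naive library. D13Ertd608e is annotated as an RNA without a protein (Entrez 52673, chromosome 13, 119845361 to 119846690). It had 454, 242 and 536 normalized counts in YFP- TEM cells, 17.2, 7.25 and 3.80 in YFP+ TEM cells and at most 1.24 in any naive library. Both genes thus had the pattern of Siglech, with 1.53% of the YFP- TEM level left in YFP+ TEM cells for Smim5 and 2.29% for D13Ertd608e. Their log2 fold changes were -5.78 ± 0.58 and -5.44 ± 0.57. With a constant of 5 before the logarithm that of Smim5 was -4.95. D13Ertd608e was at 0 in all 3 YFP- naive libraries, and its YFP- TEM mean was at least 122-fold higher, taken at the same floor.

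Pacsin1 encodes an adaptor that links endocytosis to the actin cytoskeleton and takes part in the interferon response of plasmacytoid dendritic cells (Entrez 23969, chromosome 17, 27655591 to 27711118). It had 5362, 5516 and 4549 normalized counts in YFP- TEM and 4179, 5624 and 3617 in YFP+ TEM cells. The naive libraries had 6486, 5422 and 6389 without YFP and 6744, 5822 and 6510 with YFP. Pacsin1 was thus abundant in every library, and the TEM groups overlapped, with 2 of 3 pairs of the same number lower in YFP+ cells. The TEM log2 fold change was -0.22 ± 0.14, and it was -0.40 without YFP+ TEM replicate 2 and -0.08 without YFP+ TEM replicate 3.

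**Figure D1:**
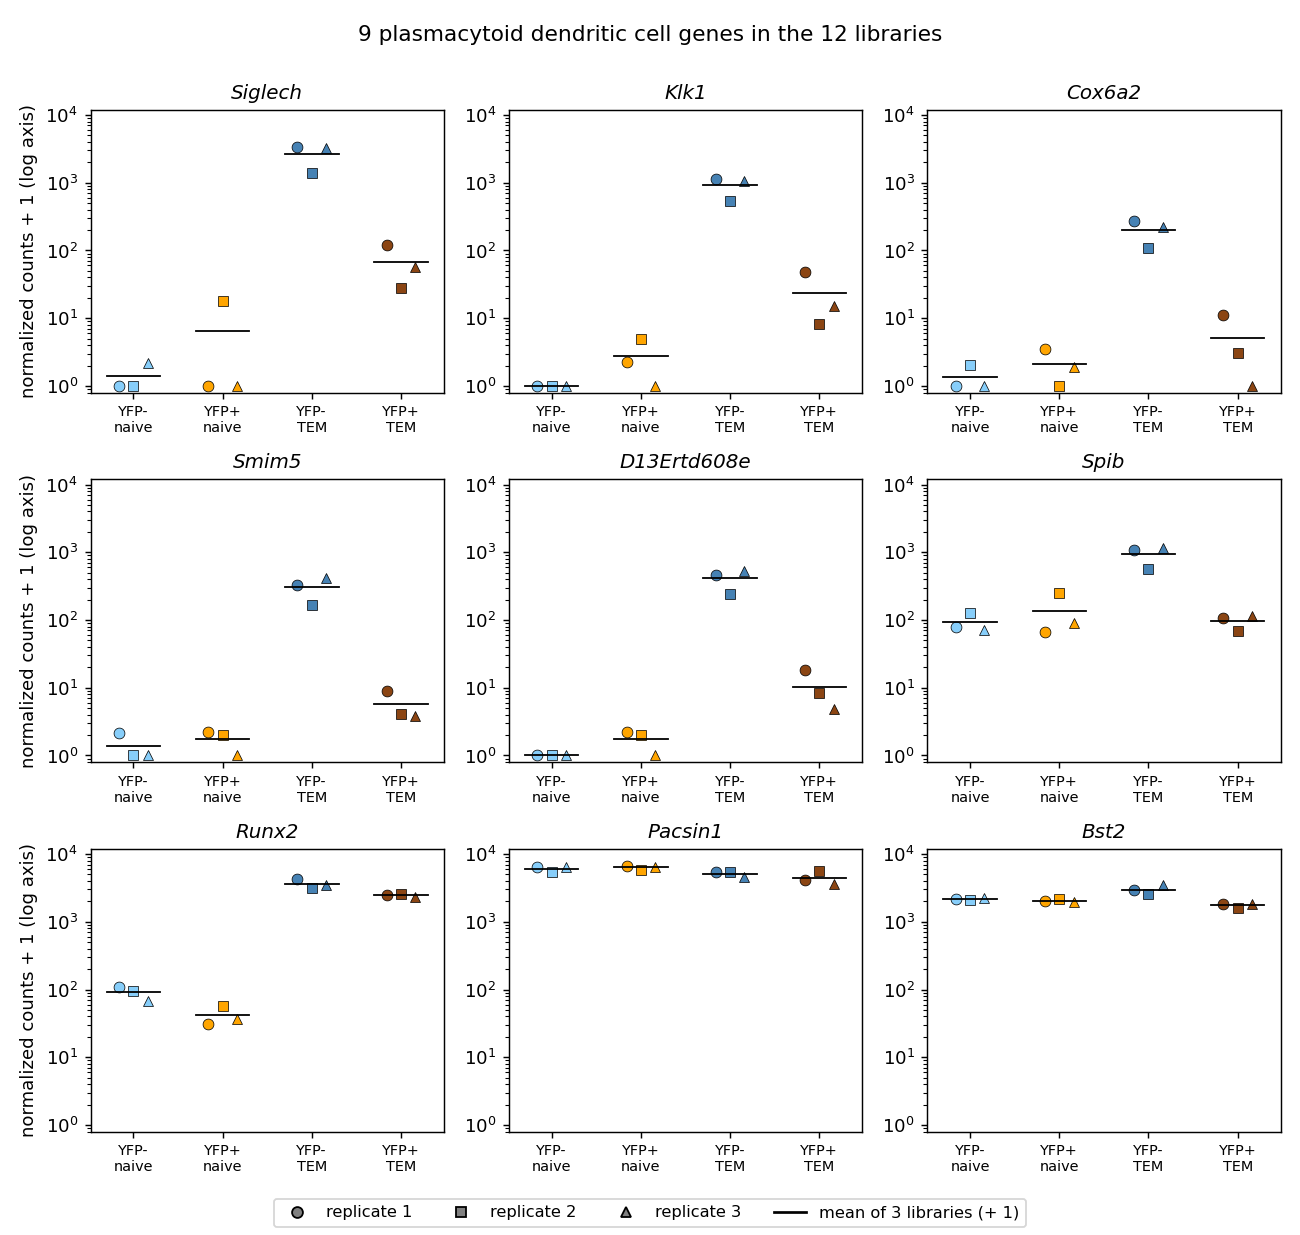
Normalized counts plus 1 on a log axis for the 9 members in each of the 12 libraries, with points for libraries and horizontal lines for group means. Siglech, Klk1, Cox6a2, Smim5 and D13Ertd608e are high in the 3 YFP- TEM libraries, whereas Runx2 is high in both TEM groups and Pacsin1 and Bst2 are high in all 4.

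Cox6a2, Smim5, Klk1, Siglech and D13Ertd608e held, in this order, places 1 to 5 from the lowest TEM log2 fold change among 15587 genes tested, which is what they were chosen for. Spib was at place 274, Bst2 at 1673, Runx2 at 2141 and Pacsin1 at 3982. All 9 members passed the filter on low values, which asked for 5 or more normalized counts in 3 or more libraries. Without the YFP- TEM libraries Cox6a2, Smim5 and D13Ertd608e would not have passed, since 1, 1 and 2 of the 9 other libraries reached 5 normalized counts. For Siglech and Klk1 4 and 3 of these 9 did. Of all genes, 6.97% were called in the TEM comparison, with 4.67% lower and 2.3% higher in YFP+ cells, where called means an adjusted p of 0.05 or less in limma, and nothing is read from the members against it. These shares moved with single libraries: the 1087 calls, 728 lower and 359 higher, became 574 without YFP- TEM replicate 3 (358 and 216) and 696 without YFP- TEM replicate 1 (460 and 236). The higher calls numbered 232 without YFP- TEM replicate 2, 189 without YFP+ TEM replicate 1 and 175 without YFP+ TEM replicate 3. Paired by replicate block 1869 genes were called, 1055 lower and 814 higher. The shared name thus covers genes of differing patterns: Pacsin1 and Bst2 were plentiful in the naive libraries, where Siglech was at or near 0, and Runx2 kept more than Siglech did in YFP+ TEM cells.

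Levels of different genes were compared per kilobase of exon. In YFP- TEM cells Bst2 had 3315 ± 492 normalized counts per kb, ahead of Klk1 (845 ± 311), Siglech (792 ± 325) and Pacsin1 (788 ± 79.6). Runx2 (413 ± 70.1), Spib (323 ± 110), Cox6a2 (292 ± 121) and Smim5 (186 ± 77.4) followed. The means ± SD of neighbours in this order overlapped except between Bst2 and Klk1 and between Pacsin1 and Runx2. Those of Siglech and Runx2, and of Spib and Smim5, overlapped as well. D13Ertd608e had no exon length.

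Within a library, members were also set against Siglech. Klk1 reads were 34.2, 37.4 and 32.3% of Siglech reads in YFP- TEM libraries 1, 2 and 3 and 39.3, 26.9 and 25.9% in the YFP+ TEM libraries, so the ratio moved little while the level of each gene dropped about as far. Smim5 reads were 9.84, 11.9 and 12.9% of Siglech in YFP- and 6.84, 11.5 and 5.17% in YFP+ TEM cells. D13Ertd608e stood at 13.5, 17.2 and 16.4% in YFP- and 14.5, 26.9 and 6.90% in YFP+ TEM cells. These ratios rest on few reads in YFP+ TEM cells, where all 3 libraries together held 201 reads of Siglech, 68 of Klk1, 28 of D13Ertd608e, 14 of Smim5 and 12 of Cox6a2. Spib differed from these genes: its reads were 31.7, 40.03 and 35.1% of Siglech in YFP- and 90.6, 254 and 207% in YFP+ TEM cells.

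**Figure D2:**
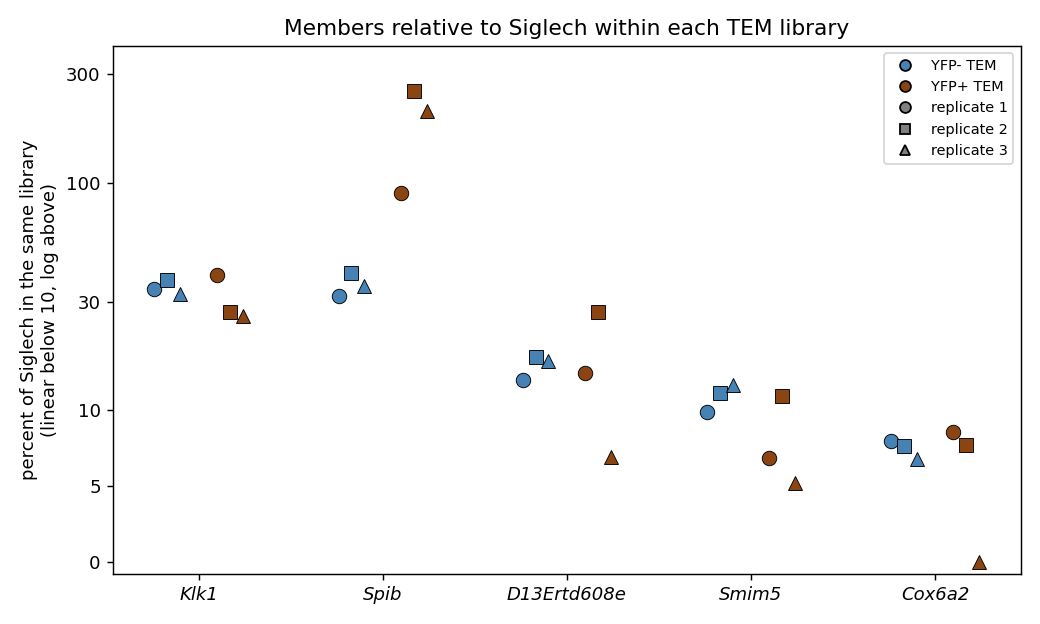
Reads of Klk1, Cox6a2, Smim5, D13Ertd608e and Spib as a percent of Siglech reads in each of the 6 TEM libraries, with 1 point per library and an axis that is linear below 10% and logarithmic above. The points of Klk1 lie between 25.9 and 39.3% in both groups, whereas those of Spib lie from 90.6 to 254% in YFP+ TEM libraries and from 31.7 to 40.03% in YFP- TEM libraries.

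Likeness to Siglech was measured as the root mean square difference of centred log2 profiles over the 12 libraries, for the 11913 genes whose mean normalized count was 50 or more. The 8 nearest genes outside the members were Epha2 (1.13), Clec4a4 (1.42), Gp2 (1.46), Mmp12, Stra6l (1.55), Havcr2 (1.61), Nav1 (1.62) and Rnf150 (1.64), in this order. Epha2, an ephrin receptor, had 573, 218 and 402 normalized counts in YFP- TEM cells, 29.3, 8.28 and 18.1 in YFP+ TEM cells and at most 1.97 in naive cells. It thus shared the low YFP- TEM replicate 2 of Siglech. Clec4a4, a C-type lectin receptor, had 599.6, 497 and 1001 normalized counts in YFP- TEM and 60.7, 31.1 and 52.3 in YFP+ TEM cells. Among the members the same measure was 0.944 for Klk1, 1.49 for D13Ertd608e, 1.83 for Smim5, 2.38 for Runx2, 2.39 for Cox6a2, 3.28 for Spib, 4.28 for Bst2 and 4.62 for Pacsin1. Klk1 was thus nearer to Siglech than Epha2 was.

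The naive comparison asks whether past GM-CSF expression goes with a difference in these genes before effector differentiation. Siglech, Klk1, Cox6a2, Smim5 and D13Ertd608e were at or near 0 reads in naive cells, so the test could say little of them, and 4 members had reads in every naive library. Limma and edgeR called 0 of these 4 and DESeq2 called 1, Runx2, against 1 of 15587 genes in limma (0.00642%), 2 in edgeR and 14 in DESeq2. Paired by replicate block limma called 6 genes, 4 lower and 2 higher. At an unadjusted p under 0.05 limma and edgeR had 1 member (Runx2) and DESeq2 had 2 (Runx2 and Siglech, the latter on the reads of a single library). The limma count was 3 with a constant of 0.1 before the logarithm, which added Klk1 and D13Ertd608e. It was 2 without YFP+ naive replicate 3, which added Klk1. Over all genes the share at that threshold was 3.32% in limma, 3.89% in edgeR and 4.56% in DESeq2. Runx2 was lower in YFP+ naive cells in 3 of 3 pairs without overlap, at 40.4 ± 13.9 against 89.9 ± 21.5 normalized counts (SD, n = 3). Its log2 fold change was -1.16 ± 0.23, with an adjusted p of 0.561 in limma. The adjusted p was 0.00507 in DESeq2 and 0.790 in edgeR, ranged from 0.00507 to 1 over all alternatives, and was 0.0950 in limma without YFP+ naive replicate 2, where the log2 fold change was -1.42.

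Spib, Bst2 and Pacsin1 had naive log2 fold changes of 0.35 ± 0.46, -0.07 ± 0.10 and 0.06 ± 0.14, all with an adjusted p of 1 in limma. The value for Spib was -0.21 without YFP+ naive replicate 2, and that for Pacsin1 was -0.0205 without YFP- naive replicate 2. Without the 4 libraries numbered 2, a choice made after seeing the data, they were 0.05 and 0.04. Bst2 was lower in YFP+ naive cells in 2 of 3 pairs, Spib higher in 2 of 3 and Pacsin1 higher in 3 of 3, all with overlapping groups. Cox6a2, Smim5 and D13Ertd608e had at most 3 reads in every naive library, so no fold is given for them. Klk1 was at 0 in the YFP- naive libraries and had at most 4 reads in a YFP+ naive library. Siglech reads in naive cells were 1 in the YFP- libraries together and 17 in the YFP+ libraries together, all of the latter in replicate 2, and without that library Siglech was at 0 in YFP+ naive cells. A p above the threshold does not show that these genes were alike in the naive groups.

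The other genes of plasmacytoid dendritic cells were taken from a list of 36 that holds no member. The naive T cell libraries held reads of most of them, with 3 to 5 of the 36 at or below 3 reads in each library. Their summed counts were 90114, 71912 and 105345 in YFP- TEM libraries and 50027, 42402 and 43013 in YFP+ TEM libraries. In naive cells the sums lay between 29037 and 35000. The list was thus highest in YFP- TEM cells, and its most abundant gene was Tspan13 in both TEM groups and Atp1b1 in both naive groups. This list and the lists of other cell types below were drawn up with earlier results of these data known. Counts of called genes on them are therefore a description.

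In TEM cells 21 of the 36 listed genes fell in YFP+ against YFP- cells and 1 rose, while 14 were not called by limma. This compares with 4.67% of all tested genes called lower and 2.3% called higher. Since earlier results were known when the list was drawn up, its larger share is not independent support. The median log2 fold change of the list was -1.98, and 34 of 36 values were below 0, against a median of -0.01 and 8209 of 15587 values below 0 over all genes. Of all genes called, 67.0% were lower, against 54.0% with quantile normalization, 56.4% when paired by replicate block and 79.2% with a threshold of 2 on the log2 fold change, the highest share over the processing alternatives.

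Among the transcription factors of the list 4 of 6 fell. Tcf4, which encodes E2-2, had 2262, 1187 and 2213 normalized counts in YFP- TEM and 387, 397 and 397 in YFP+ TEM cells. The YFP+ values were alike, below all YFP- values and above those of naive cells, which lay between 160 and 274. Tcf4 fell in 3 of 3 pairs, with a log2 fold change of -2.20 ± 0.25 and an adjusted p of 0.000294 in limma. Irf8, which directs dendritic cell development, had 6550, 3540 and 6686 normalized counts in YFP- TEM and 1477, 1228 and 1774 in YFP+ TEM cells. It fell in 3 of 3 pairs, with a log2 fold change of -1.86 ± 0.32 and an adjusted p of 0.00311 in limma. The repressor gene Bcl11a and the corepressor gene Cbfa2t3 fell by 4.04 and 3.25 on the log2 scale. Irf7, the interferon regulatory factor of the type I response, had a value of -0.10 and an adjusted p of 0.900 in limma, with 2 of 3 pairs lower.

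Among the surface receptors 6 of 10 fell and none rose. Ly6d, a GPI-anchored protein of lymphoid progenitors, had 884, 459.5 and 1315 normalized counts in YFP- TEM and 114, 20.7 and 68.4 in YFP+ TEM cells. The groups did not overlap, and Ly6d fell in 3 of 3 pairs with a log2 fold change of -3.86 ± 0.56 and an adjusted p of 0.00119 in limma. Over libraries left out this fold change ranged from -4.39 to -3.18. Flt3, the cytokine receptor that dendritic cells need to develop, had 2573, 1660 and 3548 normalized counts in YFP- TEM and 167, 55.9 and 182 in YFP+ TEM cells. It fell by 4.36 on the log2 scale, Havcr1 fell by 5.16, Cd300c fell by 4.77 and Lair1 fell by 2.29. The YFP+ TEM libraries held only 8, 3 and 1 reads of Havcr1 and 6, 3 and 3 of Cd300c. With a constant of 5 before the logarithm their values were -4.16 and -3.93. Both genes passed the filter on low values only through the YFP- TEM libraries. Their calls in TEM cells and in the interaction are counted in the totals, but they are a description and nothing is supported with them. Ly6c2, a GPI-anchored surface protein, fell by 0.85, with an adjusted p of 0.0126 in limma that went above 0.05 when YFP- TEM replicate 1 or 3 or YFP+ TEM replicate 2 or 3 was left out (0.0523 to 0.0768), within a range of 0.000293 to 0.0768 over all alternatives.

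Ccr9, the chemokine receptor that guides cells to the gut, went the other way. It had 1209, 497 and 1218 normalized counts in YFP- TEM and 2826, 1096 and 3405 in YFP+ TEM cells. The YFP+ value was higher in 3 of 3 pairs, and the groups overlapped. Its log2 fold change was 1.28 ± 0.41 with an adjusted p of 0.0956 in limma. Paired by replicate block the adjusted p was 0.0373, in DESeq2 it was 0.00970, without YFP+ TEM replicate 2 it was 0.0102 in limma (log2 fold change 1.78), and it ranged from 0.00970 to 0.354 over all alternatives.

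Among the genes of nucleic acid sensing 3 of 6 fell, namely Tlr9, Unc93b1 and Pld4. Tlr9, the receptor for DNA with CpG, had 1662, 1140 and 2733 normalized counts in YFP- TEM and 209, 207 and 179 in YFP+ TEM cells. The groups were well apart, and Tlr9 fell in 3 of 3 pairs, with a log2 fold change of -3.12 ± 0.41 and an adjusted p of 0.000672 in limma. Tlr7, the receptor for single-stranded RNA, had 987, 779 and 1445 normalized counts in YFP- TEM and 1353, 781 and 844 in YFP+ TEM cells. The groups overlapped, 1 of 3 pairs was lower, and the log2 fold change was -0.11 ± 0.29 with an adjusted p of 0.935 in limma. Without YFP- TEM replicate 3 the sign turned (0.13), as it did without YFP+ TEM replicate 2 (0.05). Pld4, an endolysosomal exonuclease, fell by 3.97 on the log2 scale, and Unc93b1, which carries these receptors to endosomes, fell by 1.61. Without YFP- TEM replicate 3 the adjusted p of Unc93b1 was 0.0614 in limma (range 3.12e-05 to 0.0614), against 0.00978 with it.

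Of the 14 secretory and other genes 8 fell and 1 rose. Dntt, the polymerase that adds bases at antigen receptor joints, had 449, 211 and 408 normalized counts in YFP- TEM and 33.4, 7.25 and 8.55 in YFP+ TEM cells. Naive cells had 695, 669 and 771 without YFP and 266, 209 and 286 with YFP. The YFP- naive libraries thus lay above all TEM libraries, and Dntt did not have the pattern of Siglech. Its naive log2 fold change was -1.50, lower in 3 of 3 pairs without overlap and not called. In TEM cells Dntt fell by 4.61 on the log2 scale, Rnase6 fell by 4.44, Upb1 fell by 4.09, Pltp fell by 2.82, Fcrla fell by 2.48, Blnk fell by 2.10, Ctsl fell by 1.80 and Grn fell by 0.94. The calls of Blnk, Fcrla and Upb1 each ended under some alternative in limma: Blnk and Fcrla without YFP- TEM replicate 1 (adjusted p of 0.128 and 0.0949) or 3 (0.108 and 0.0923), Blnk also without YFP+ TEM replicate 1 (0.0783) or 2 (0.0920) or without a variance trend (0.0512), and Upb1 with a constant of 0.1 (0.143). Tex2 rose, with 3427, 2016 and 2696 normalized counts in YFP- TEM and 7990, 4316 and 5349 in YFP+ TEM cells. Its log2 fold change was 1.10 ± 0.24 in 3 of 3 pairs with an adjusted p of 0.0130 in limma. That call ended without YFP- TEM replicate 2 (0.0617) or 3 (0.0527) or YFP+ TEM replicate 1 (0.0554).

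**Figure D3:**
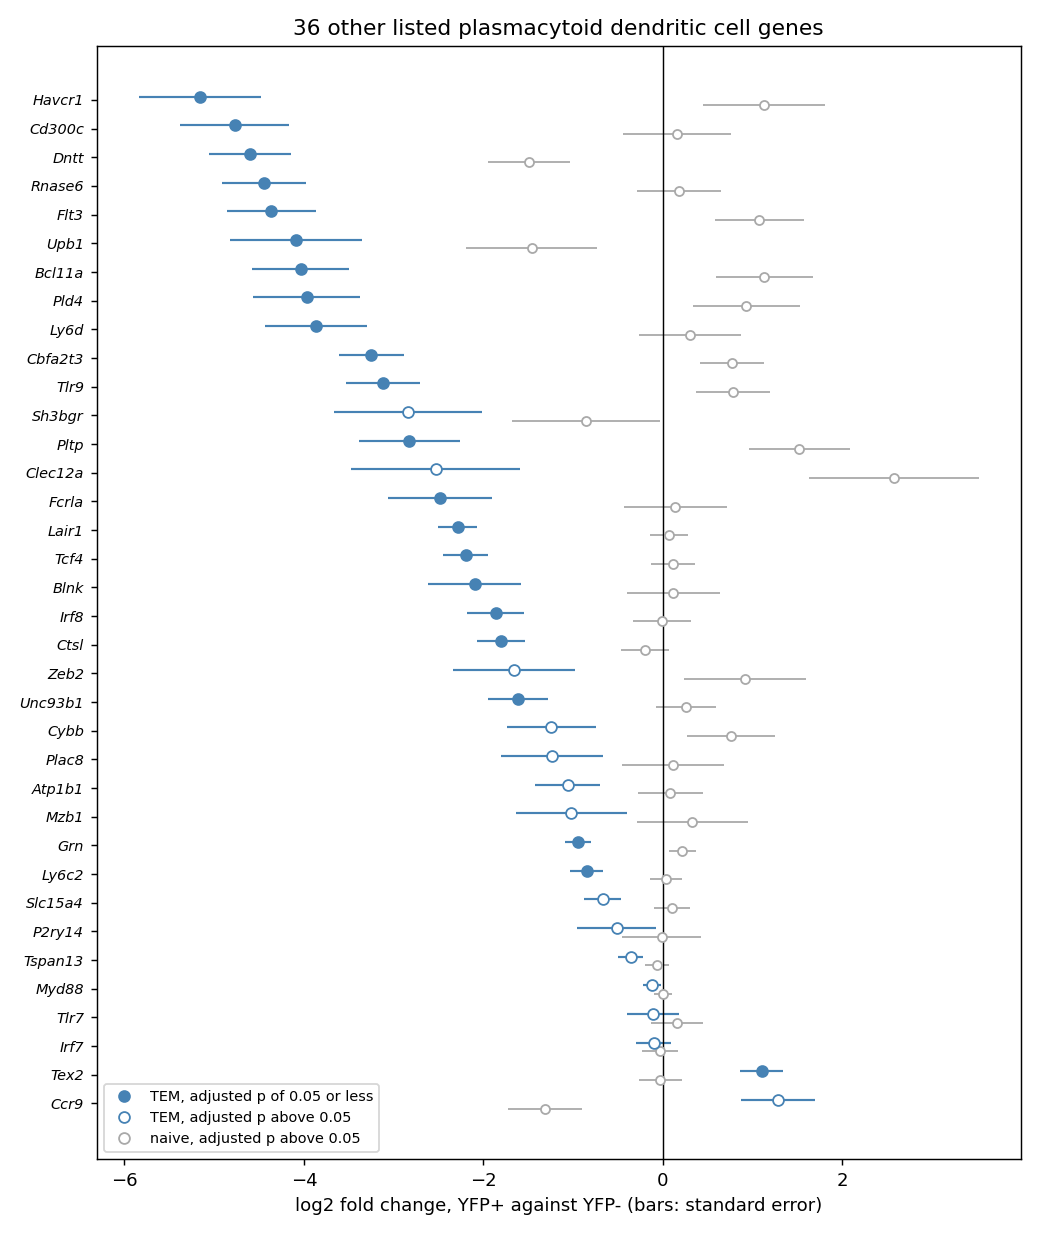
Log2 fold change of YFP+ against YFP- cells for the 36 listed genes that are not members, in TEM and in naive cells, with the called ones filled and bars for the SE. The TEM values of 34 genes are below 0, and the naive values lie from -1.50 for Dntt to 2.58 for Clec12a with none called. YFP+ naive libraries 1, 2 and 3 had 13.6, 59.0 and 5.58 normalized counts of Clec12a, so its naive value leans on replicate 2.

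In naive cells limma called 0 of the 36 listed genes, and edgeR and DESeq2 also called 0. At an unadjusted p under 0.05 there were 4 in limma, 7 in edgeR and 9 in DESeq2, against 518, 607 and 710 of all 15587 genes. Over all genes these are 3.32%, 3.89% and 4.56%, smaller shares than those of the list. The 4 in limma were Ccr9, Dntt, Clec12a and Pltp. Ccr9 and Dntt were lower in YFP+ naive cells in 3 of 3 pairs without overlap. Clec12a and Pltp were higher in 3 of 3 pairs with overlapping groups. The count in limma was 8 without YFP+ naive replicate 1 or 3, 3 without YFP+ naive replicate 2, 6 when paired by replicate block and 2 in a fit of only the 6 naive libraries. The difference of the YFP effect between TEM and naive cells, tested as an interaction in limma, was called for 17 of 36 genes, of which 16 were lower and 1 higher in TEM cells. Of all genes 3.55% were called in the interaction, 2.73% lower and 0.828% higher. Those 554 genes became 267 without YFP- TEM replicate 3, 316 without YFP- TEM replicate 1, 368 without YFP+ TEM replicate 1 and 890 when paired by replicate block. The 129 of them called higher became 57 without YFP+ TEM replicate 3 and 60 without YFP+ TEM replicate 1. When paired by replicate block 293 were higher. The 1 listed gene called higher was Ccr9, at 1.28 in TEM and -1.31 in naive cells. Tcf4, Irf8, Ly6d and Tlr9 were among the 16. Tlr7 was not called (-0.26, adjusted p of 0.970 in limma). Of 10 conventional dendritic cell genes 8 were called lower in the interaction and none higher. Their median was -4.50, against -2.11 for the 36, so the difference was not particular to the plasmacytoid list.

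Markers of other cell types moved in the same TEM libraries. Of 10 conventional dendritic cell genes 8 fell and none rose, with summed counts of 65734, 47319 and 97984 in YFP- TEM and 7284, 2767 and 5743 in YFP+ TEM cells. Naive sums of that list were 578, 1278 and 1052 without YFP and 869, 2948 and 880 with YFP, where 2 to 6 of the 10 genes were at or below 3 reads in a library. Its most abundant gene in each group, the MHC class II gene H2-Ab1, fell by 3.87 on the log2 scale, and Itgax, which encodes CD11c, fell by 4.15. The 8 called genes were thus high and low in the same TEM groups as Siglech. Xcr1 and Snx22 were not called, and their TEM groups overlapped. The median log2 fold change of the 10 genes was -3.56, against -1.98 for the 36 listed plasmacytoid genes. Among the called genes, Clec10a passed the filter on low values only through the YFP- TEM libraries. No gene of the list was at 0 in a TEM library. The part of conventional dendritic cell genes in the values of the plasmacytoid genes was not tested.

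Of 9 macrophage, monocyte and neutrophil genes 2 fell (Adgre1 and Cd68), with sums of 7593, 6315 and 11867 in YFP- TEM and 4276, 2121 and 2932 in YFP+ TEM cells. In naive cells these sums were 375, 881 and 210 without YFP and 626, 4286 and 324 with YFP, and the gene with the highest mean over the 12 libraries was Csf1r, which Adgre1 and Cd68 exceeded in YFP- TEM cells. The list did not move one way: its median log2 fold change was 1.41 and 4 of 9 values were below 0. C1qa (1.41), Fcgr1 (1.68), Mertk (1.99), S100a8 (4.11) and S100a9 (4.53) were higher in YFP+ TEM cells in 3 of 3 pairs without overlap and were not called. The neutrophil gene S100a8 had at most 3 reads in each YFP- TEM library. Of 10 B cell genes none fell and 2 rose (Cd79a and Ebf1), with sums of 2610, 2327 and 3414 in YFP- TEM and 1970, 1516 and 2211 in YFP+ TEM cells. The most abundant in TEM cells was Cd22, with means of 2237 ± 474 in YFP- TEM and 1040 ± 130 in YFP+ TEM cells (SD, n = 3). The B cell genes thus did not move together.

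Of 4 NK cell genes 2 rose (Ncr1 and Klrb1c), with sums of 677, 838 and 618 in YFP- TEM and 1860, 1376 and 2085 in YFP+ TEM cells. The most abundant was Klrb1c in YFP+ TEM cells and Eomes in the other 3 groups. Eomes was also called, as lower, when paired by replicate block. Ncr1, which defines NK cells, was at 0 in all YFP- TEM libraries. It passed the filter on low values only through the YFP+ TEM libraries, so nothing is supported with its call. None of 4 plasma cell genes was called, and the sums were 7542, 6630 and 6285 in YFP- TEM and 9428, 7156 and 6343 in YFP+ TEM cells, with Xbp1 the most abundant in YFP- TEM and Prdm1 in YFP+ TEM cells. Paired by replicate block both were called, Prdm1 as higher and Xbp1 as lower. None of the 3 erythroid and platelet genes tested was called. The sums of the 5 erythroid and platelet genes in the table were 869, 394 and 67.2 in YFP- TEM and 2144, 538 and 819 in YFP+ TEM cells, Hba-a1 was the most abundant in both TEM groups, and Pf4 was at 0 in all YFP- TEM libraries. None of 8 T cell genes was called, with sums of 239334, 259986 and 227616 in YFP- TEM and 274109, 273159 and 257004 in YFP+ TEM cells, and Cd4 the most abundant in both TEM groups. Paired by replicate block 1 of these, Bcl11b, was called as higher. In naive cells limma called none of the genes of these lists.

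In naive cells the sums without YFP, then with YFP, were 241, 268 and 256, then 261, 351 and 245 for NK cell genes. For plasma cell genes they were 3172, 3233 and 2487, then 3205, 3762 and 2595, and for erythroid and platelet genes 108, 263 and 29.95, then 596, 2524 and 56.7. T cell genes had 273665, 215716 and 254505, then 289991, 214827 and 254626. Among naive libraries the other cell lists were thus highest in YFP+ naive replicate 2. The T cell sum was about as low in YFP- naive replicate 2 (215716) as in YFP+ naive replicate 2 (214827), so it did not set the latter apart. YFP+ naive replicate 2 also held 17 reads of Siglech, against 1 in YFP- naive replicate 3 and 0 in the other naive libraries.

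**Figure D4:**
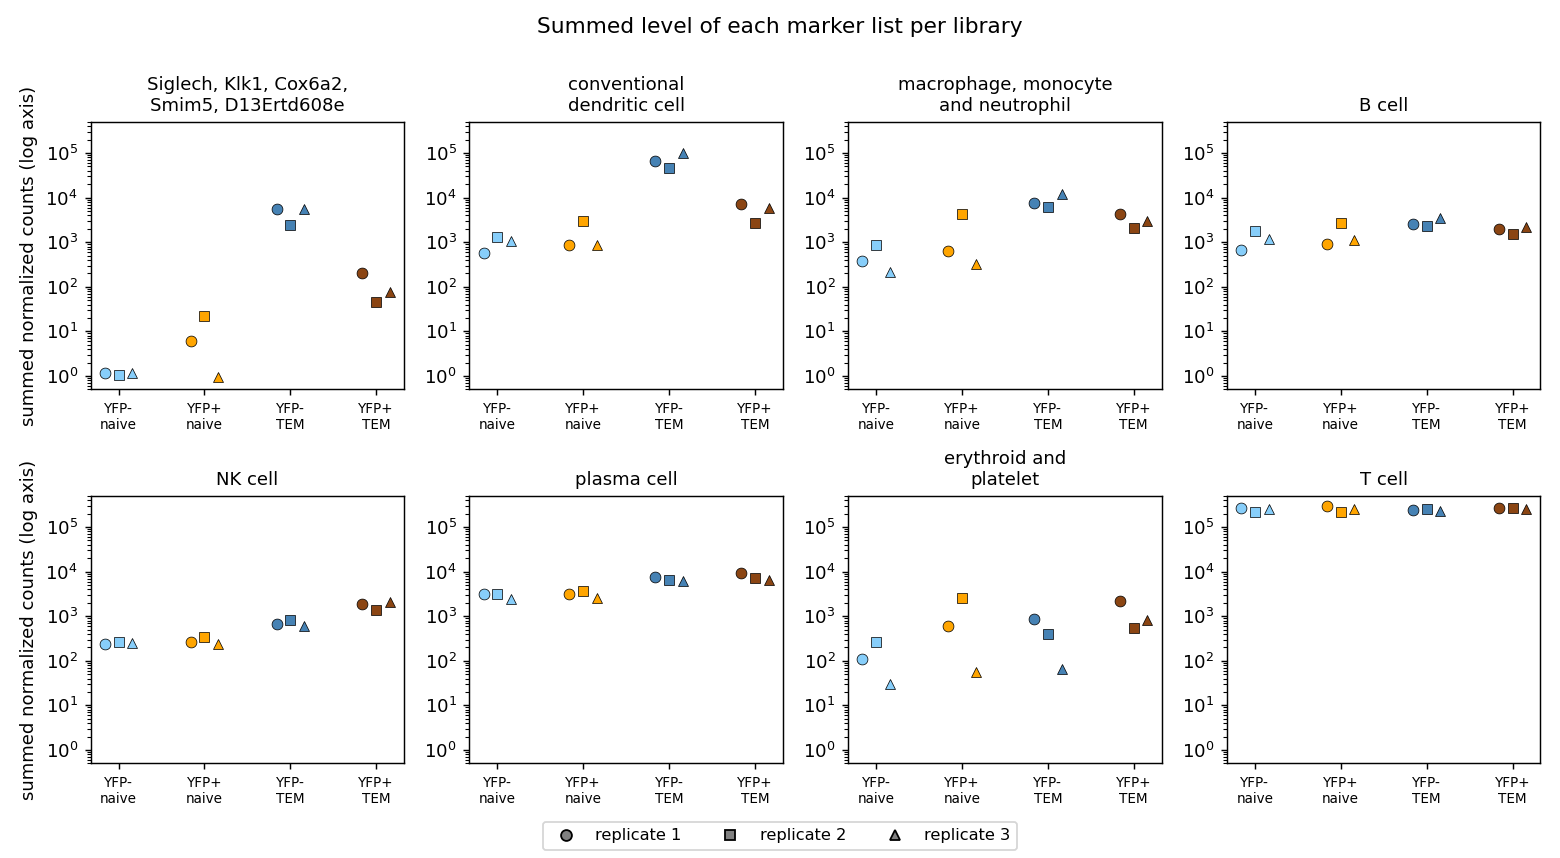
Summed normalized counts on a log axis for each marker list and for the 5 members led by Siglech in each of the 12 libraries, with points for libraries. The conventional dendritic cell sum lies at 47319 or more in YFP- TEM libraries and at 7284 or less in all others, and the sum over Siglech, Klk1, Cox6a2, Smim5 and D13Ertd608e lies between 2458 and 5570 in YFP- TEM libraries and at most at 200.2 in the others.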

How the data were processed

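The deposited signal consists of normalized counts for 12 libraries, which the authors made by mapping stranded total RNA reads to mm10 with DRAGEN, counting with Rsubread and dividing by DESeq2 size factors. The annotation, strand setting and tool versions are not given in the sources used here, so reads in overlaps (Cox6a2 with Itgad, Smim5 with Recql5, Runx2 with Supt3 and Runx2os3, Siglech with Gm39015, Klk1 with Gm10109) cannot be assigned. No column was left unused (0), and 100% of values were whole reads within 0.001 after multiplication by the size factor, with 40974124 to 57822269 reads per library (median 44929387.5). RefSeq on GRCm38.p6 gave names to 16749 Entrez identifiers and none to 774. Exon lengths came from GENCODE for 15018 genes.

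Genes that reached 5 normalized counts in 3 or more libraries (15587) entered the fit on log2 of the value plus 1. It used limma 3.58.1 under R 4.3.3, a mean for each of the 4 groups, 8 residual degrees of freedom and eBayes with a trend. Adjustment followed Benjamini and Hochberg over all these genes, and a gene was called at an adjusted p of 0.05 or less. Fold changes are YFP+ minus YFP- on the log2 scale, and the interaction is that in TEM minus that in naive cells. Tables and figures were made with Python 3.11.15, pandas 2.3.3 and matplotlib 3.10.9.

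Libraries of the same number correlated across genes after removal of group means, with r of 0.306, 0.491 and 0.360 in naive and 0.180, 0.338 and 0.356 in TEM cells, against -0.351 to 0.0184 and -0.297 to -0.0360 for different numbers. Removal of group means lowers the values for different numbers when those for the same number are positive, so the contrast is partly built in. Genes are not independent replicates. The number was used as a replicate block in a paired alternative. The other alternatives were a constant of 0.1 or 5 before the logarithm, all genes, genes with a mean of 10 or more, TMM factors, quantile normalization, no trend, a fit to only the 6 libraries compared, a fold change threshold (log2 of 1 or 2), edgeR 4.0.16 and DESeq2 1.42.0 on recovered reads, and leaving out each library of the groups compared. Leaving out the 4 libraries numbered 2, or each library of the other groups, was chosen after seeing the data.

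Members, gene lists and tests were chosen with earlier results of these data known. The lists were 36 other plasmacytoid dendritic cell genes in 4 sets and markers of conventional dendritic cells, macrophages with monocytes and neutrophils, B cells, plasma cells, NK cells, erythroid cells with platelets, and T cells. No gene is on more than 1 list, and Ly6g, Tnfrsf17 and Klra8 are not in the table. Genes named are the members, listed plasmacytoid genes that were called, Tcf4, Irf8, Tlr7, Tlr9, Ccr9 and Ly6d whatever their result, genes on the lists of the other cell types, the 8 genes nearest to Siglech, and Csf2, Cd44 and Cd4 as checks of the labels. Not every gene covered by this rule is reported here. Irf7, Tspan13, Atp1b1, Clec12a, Slc15a4, Cybb and Itgad were named after their values were seen.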

Additional observations from a re-analysis of the deposited data

Results flagged for a closer look

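The effect of YFP in TEM cells differed from that in naive cells for 17 listed plasmacytoid dendritic cell genes, by the interaction test in limma. It was not particular to this list. Of 10 conventional dendritic cell genes 8 were called lower in the same interaction, with a median of -4.50 against -2.11 for the 36 plasmacytoid genes. The difference is given on the log2 scale as the TEM effect minus the naive effect. Among transcription factors it was -2.31 for Tcf4, -5.17 for Bcl11a, -1.85 for Irf8 and -4.02 for Cbfa2t3. Among surface receptors it was 2.59 for Ccr9, -4.17 for Ly6d, -5.44 for Flt3, -2.36 for Lair1, -4.93 for Cd300c and -6.28 for Havcr1. The naive libraries held at most 3 reads of Cd300c and of Havcr1 each, and the YFP+ TEM libraries at most 6 and 8, so the fitted differences of these genes depend on the added constant. Both genes passed the filter on low values only through the YFP- TEM libraries, so nothing is supported with their calls. In nucleic acid sensing it was -3.91 for Tlr9 and -4.90 for Pld4. The naive effect within the Pld4 value was 0.93 and leaned on YFP+ naive replicate 2. Its counts were 44.5, 281 and 54.9 in YFP+ naive and 29.9, 65.8 and 49.5 in YFP- naive libraries. Pld4 was not alone in this. YFP+ naive counts were 30.9, 111 and 56.7 for Bcl11a, 19.8, 65.9 and 29.8 for Flt3, 51.9, 157 and 78.1 for Cbfa2t3 and 59.4, 131 and 50.2 for Tlr9. The naive effects of these genes were 1.13, 1.08, 0.77 and 0.78. Among secretory and other genes the difference was -4.63 for Rnase6, -4.34 for Pltp, -1.60 for Ctsl, -1.16 for Grn and -3.11 for Dntt. For the 9 members this difference was not tested, because their TEM effect had chosen them.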

How the results depend on the processing

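Of the counts, that of members called in naive cells was 0 under the alternatives other than DESeq2, where it was 1, and leaving out each library gave 0 to 0. This count says nothing of stability for the 5 members at or near the floor in naive cells. DESeq2 was run on the reads with its own model of the spread, and the cause was not tested. Listed plasmacytoid genes called lower in TEM cells numbered 21, with 16 to 24 over the processing alternatives, 17 to 24 over libraries left out and 25 without the 4 libraries numbered 2. Those called higher numbered 1, with 2 under the replicate block, DESeq2 and without the 4 libraries numbered 2, 0 with a threshold of 2 on the log2 fold change, and 0 to 2 over libraries left out (0 without YFP- TEM replicate 2 or 3 or YFP+ TEM replicate 1, 2 without YFP+ TEM replicate 2). The cause was not tested. Those called in the interaction numbered 17, with 13 to 22 and, over libraries left out, 13 to 18. Those called in naive cells numbered 0 under every alternative run.

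Direction turned for Spib in naive cells (-0.21 without YFP+ naive replicate 2, with a range of -0.21 to 0.74 over libraries left out), Pacsin1 in naive cells (-0.0205 without YFP- naive replicate 2, range -0.0205 to 0.12) and Tlr7 in TEM cells (0.13 without YFP- TEM replicate 3, 0.05 without YFP+ TEM replicate 2, range -0.35 to 0.13), and none of these genes was called. Without the 4 libraries numbered 2 Spib was at 0.05 and Pacsin1 at 0.04 in naive cells, with the sign kept. Among the listed plasmacytoid genes the replicate block added 4 calls in TEM cells (Ccr9, Tspan13, Slc15a4 and Cybb) and 5 in the interaction (Clec12a, Unc93b1, Slc15a4, Cybb and Tex2), and among the other lists 4 in TEM cells (Prdm1, Xbp1, Eomes and Bcl11b). It changed no other call of the listed genes in these comparisons or of the members in naive cells. The members' TEM values moved by less than the spread in 212 of the values computed again and by more in 4, for Cox6a2, Smim5 and Pacsin1. Of the values of tested genes 647 kept their direction and call, 16 lost the call (6 genes), 5 gained it (Ccr9 and Runx2) and 4 turned. Limits of these data are 3 libraries a group, unstated pairing by animal, and 201 or fewer reads over the YFP+ TEM libraries for each of Siglech, Klk1, Cox6a2, Smim5 and D13Ertd608e.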
